A study of Mus musculus with 24 samples.

Results

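The genes described here are those of the mouse major histocompatibility complex (MHC) class II pathway: Ciita, Cd74, H2-Aa, H2-Ab1, H2-Eb1, H2-DMa, H2-DMb1, H2-DMb2, H2-Oa and H2-Ob. They were taken by symbol, and all 10 were found among the 35275 genes measured in cultured cells and among the 54532 measured in tumors. RNA-seq was available for D2A1 and D2.1 cells, 2 mouse mammary tumor lines derived from the D2 type of hyperplastic alveolar nodule, a BALB/c lesion, in culture (3 libraries each) and as untreated tumors grown in the mammary fat pad of female mice. The hosts were BALB/c mice, which are immunocompetent (4 tumors of each line), or SCID-beige mice, which lack T and B cells and have defective NK cells but keep myeloid cells (5 tumors of each line), and each tumor came from 1 mouse. The hosts were young adult mice. Tumors were collected at about the same volume. Groups that grew at different rates would therefore differ in time in the mouse, which cannot be told apart from line and host here. D2A1 is the rapidly growing line and D2.1 the dormancy-competent line, and each represents a single established cell line. The comparisons ask how class II transcripts differ between the lines and between hosts with and without adaptive immunity.

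Class II molecules present peptides from endocytosed proteins to CD4+ T cells, mainly on dendritic cells, macrophages and B cells, and on other cells after exposure to interferon-gamma. Ciita encodes the transactivator that switches the pathway on. It binds no DNA itself and is recruited by RFX, CREB and NF-Y factors that sit on the X and Y boxes of class II promoters. Cd74 encodes the invariant chain, which fills the groove of new class II molecules and takes them to endosomes. There the H2-DM proteins exchange its remnant for peptides, and H2-DO (H2-Oa with H2-Ob) restrains H2-DM.

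H2-Oa, H2-DMa, H2-DMb2, H2-DMb1, H2-Ob, H2-Ab1, H2-Aa and H2-Eb1 lie in that order on chromosome 17 between bases 34092340 and 34316674 of GRCm38 (mm10) and Ciita lies at chr16:10480059-10528418. Promoter sequence from RefSeq (build GRCm38.p6) was found for 7 of the 10 genes, with no entry for Ciita, Cd74 and H2-Ab1. The stretches that carry the box-like motifs are printed 5′ to 3′ on the strand of the gene, because they show which members share a promoter layout. Capitals mark an X-like run of 11 bases that ends in ATGATG and starts with the same 3 bases in every line that has it, the fourth and the fifth base being free, TGATTGG (Y-like) and, in H2-Aa, TGACGTCA, a cAMP-response palindrome.
H2-Eb1, chr17:34305763-34305827, plus strand: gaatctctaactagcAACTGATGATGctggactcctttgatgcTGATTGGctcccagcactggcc
H2-DMb1, chr17:34153084-34153149, plus strand: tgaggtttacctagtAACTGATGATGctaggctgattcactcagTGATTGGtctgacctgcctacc
H2-DMb2, chr17:34145113-34145178, plus strand: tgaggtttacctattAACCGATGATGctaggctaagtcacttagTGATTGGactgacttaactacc
H2-Ob, chr17:34238805-34238867, plus strand: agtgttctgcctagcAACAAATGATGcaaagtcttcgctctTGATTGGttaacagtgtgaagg
H2-Aa, chr17:34287852-34287912, minus strand: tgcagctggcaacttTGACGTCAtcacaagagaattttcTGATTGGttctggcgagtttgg
H2-Oa, chr17:34092279-34092355, plus strand: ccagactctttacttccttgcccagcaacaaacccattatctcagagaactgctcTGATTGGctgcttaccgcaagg

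In H2-Eb1, H2-DMb1, H2-DMb2 and H2-Ob the X-like run was followed by the Y-like run after 17, 18, 18 and 15 bases. The X-like run began 89, 92, 121 and 85 bases before the RefSeq start. The gene positions used elsewhere here come from GENCODE, whose starts of H2-DMb1 (34153072) and H2-DMb2 (34143307) lie before the printed stretches and of H2-Oa (34092340) inside it. H2-Aa carried the palindrome 16 bases ahead of its Y-like run, and H2-Oa carried the Y-like run alone. Neither run was in the 250 bases before either RefSeq start of H2-DMa, which says only that these letters are not in those windows. Over the 32851 mouse promoters of the same length, counting either strand, the X-like run was in 0.119%, the Y-like run in 7.23% and the palindrome in 1.55%. An X-like run followed on the gene's strand by a Y-like run 8 to 40 bases later was found in 4 promoters, those of the 4 genes named first. The letters were written down from the members' own promoters, so these shares are descriptions and not a test. These 4 genes, alike in layout, had different levels and different changes in the tumors.

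Library totals ran from 16837260 to 24818234 counts in culture and from 13566949 to 18355153 in tumors, and a count of 0 allows up to 3 counts, or between 0.121 and 0.221 CPM (counts relative to library size, TMM-scaled except in this floor) depending on the library, for counting error only. Summed over 6 mammary epithelial markers, the tumors held 361 to 1235 CPM. T cell marker sums were 77.9 to 230 CPM in D2.1 BALB/c tumors, 11.1 to 31.8 in D2A1 tumors of BALB/c mice and 3.41 to 17.0 in the 10 tumors of SCID-beige mice. Ms4a1, a B cell marker, was at 0.184 CPM or below in the 10 tumors of SCID-beige mice. D2.1 BALB/c tumor 1 held milk protein transcripts (Csn2, beta-casein, 209.8 CPM against at most 0.348 in the other 3), and D2.1 BALB/c tumor 4 held skin keratin (Krt10, 50.9 CPM) and Glycam1 (59.6 CPM) transcripts. Glycam1 is on both the lymph node and the milk protein list used here, and its source was not tested. Of the other lymph node genes, Ccl19 and Ccl21a were at 0 and Madcam1 at most at 1.67 CPM in D2.1 BALB/c tumors. Cxcl13, Fcer2a and Cr2 reached 93.2, 9.90 and 3.54 CPM in that group. D2.1 culture replicate 2 held macrophage transcripts, with 8 counts of C1qa against 0 in the other 5 cultures. The calls of the members and of the gene lists are given with and without these libraries where they change, while levels, ratios, permutation tests and correlations include them.

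In culture, 8 of the 10 genes were near or at 0 in both lines, and Cd74 and H2-DMa were detected. Ciita had 0, 3 and 2 counts in the D2.1 cultures and 0, 1 and 1 in the D2A1 cultures. H2-DMb2, H2-Oa and H2-Ob were at 0 in all 6 libraries, and H2-DMb1 had 1 count in 1 of them. H2-Aa, H2-Ab1 and H2-Eb1, which encode the classical chains of I-A and the I-E beta chain, had 7, 10 and 6 counts in D2.1 culture replicate 2 and at most 1 count in any other culture. The same library held the C1qa counts given above, together with 21 counts of Lyz2, 10 of Laptm5 and 16 of Csf1r, transcripts of myeloid cells. Itgax had 27 counts in D2.1 culture replicate 3 against 4 in replicate 2, and Csf1r had 7 in replicate 3, where the classical chains were at 0. Summed over the 10 macrophage markers the D2.1 cultures held 24.9 to 28.9 CPM. That sum includes Cd68, at 7.46 to 8.95 CPM in the D2.1 cultures, and is too coarse to show a few counts of C1qa or Lyz2. The part of myeloid cells in the class II counts was not tested.

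Cd74 differed between the lines in culture. It had 44, 63 and 84 counts in the D2.1 cultures and 4, 6 and 1 in the D2A1 cultures, so that the lines did not overlap. In FPKM (fragments scaled for transcript length and library size) the level was 2.22 ± 0.907 (SD, n = 3) in D2.1 and 0.152 ± 0.104 (SD, n = 3) in D2A1 cells. The difference was 3.93 ± 0.53 (SE) on the log2 scale, with an adjusted p of 4.6e-04 from edgeR's quasi-likelihood test over all genes, and 4.03 (adjusted p = 0.0031) without the D2.1 culture that held macrophage transcripts. The smallest p that an exact two-sided permutation test can give for 3 against 3 libraries is 0.1, which Cd74 reached. H2-DMa, the alpha chain of H2-DM, was at 71, 93 and 59 counts in D2.1 and 75, 72 and 75 in D2A1 cultures, which overlapped, and its difference was -0.15 ± 0.23 (adjusted p = 0.62). H2-DMa shares 360 of its 3448 exonic bases with Brd2 on the opposite strand, a gene with 6448 to 10777 counts in these cultures, and whether counting used strand is not given in the sources used here. Thus 1 of the 2 members that could be tested in culture was called (Cd74, higher in D2.1), beside 24.2% of all genes called higher and 44.9% called either way. It was also the 1 that did not overlap, beside 28.6% of all genes without overlap and higher. The labels do not say whether the cultures were separate, so these p-values may measure technical spread.

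**Figure D1:**
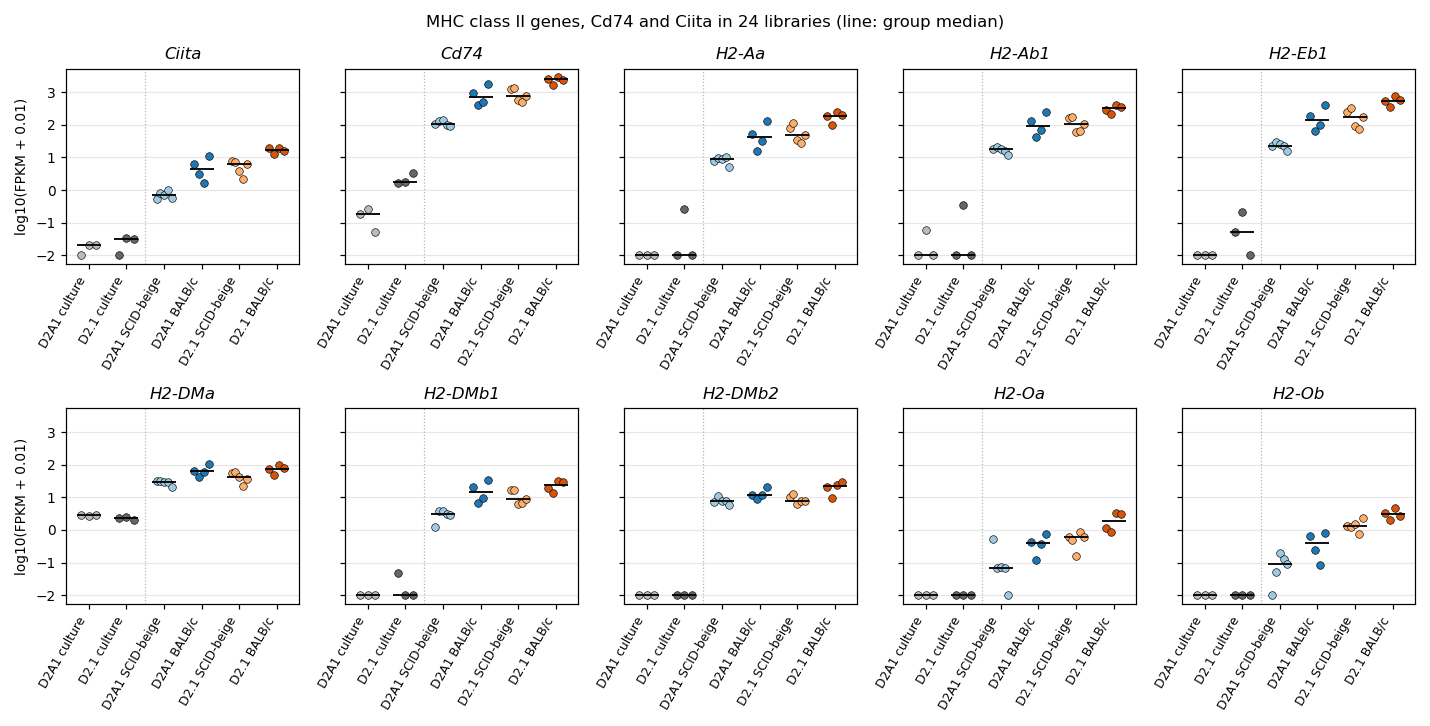
FPKM of each gene in the 24 libraries, as log10(FPKM + 0.01), by group, with 1 point per library and a line at the group median. The dotted line parts the culture table from the tumor table, which are set side by side without a test, and Cd74 is at 89.2 FPKM or above in every tumor and at 3.26 or below in every culture.

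All 10 genes were transcribed in tumors. Cd74 had the highest level of the 10 per length in every tumor group, with a median of 2459 FPKM in D2.1 BALB/c, 791 in D2.1 SCID-beige, 726 in D2A1 BALB/c and 104 in D2A1 SCID-beige tumors, followed by H2-Eb1 (546, 168, 144 and 22.6 FPKM in the same order) in the first 3 groups and by H2-DMa (28.9 FPKM) in the last. At the low end H2-Oa had medians of 2.15, 0.591, 0.396 and 0.0563 FPKM. For all 10 genes the D2.1 BALB/c tumors had the highest median. Ciita, Cd74, the 3 classical chains, H2-Oa and H2-Ob came next in D2.1 SCID-beige tumors, whereas for H2-DMa, H2-DMb1 and H2-DMb2 the D2A1 BALB/c tumors came next. The ranges of these middle groups overlapped for every gene, and their order was not tested. For H2-Ob the overlap was narrow, with the lowest D2.1 SCID-beige tumor at 0.737 FPKM and the highest D2A1 BALB/c tumor at 0.818 FPKM. D2A1 SCID-beige tumors were lowest for 9 genes, and for H2-DMb2 their median (7.64 FPKM) and that of D2.1 SCID-beige tumors (7.61 FPKM) lay together. In bulk RNA, fewer cells of a type and less RNA per cell cannot be told apart.

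D2.1 tumors held more Ciita than D2A1 tumors in both hosts. In BALB/c mice Ciita was at 19.3, 12.8, 18.8 and 15.7 FPKM in D2.1 tumors 1 to 4 and at 6.41, 3.14, 1.64 and 10.7 FPKM in D2A1 tumors 1 to 4. The groups did not overlap, and D2A1 tumor 4 was the nearest to the D2.1 range. In SCID-beige mice the D2.1 tumors had 7.86, 7.17, 3.83, 2.20 and 6.20 FPKM and the D2A1 tumors 0.519, 0.824, 0.677, 0.974 and 0.558 FPKM, again without overlap. The log2 difference between the lines was 1.69 ± 0.46 (SE, adjusted p = 0.016) in BALB/c and 2.99 ± 0.35 (adjusted p = 2.8e-05) in SCID-beige mice. Ciita shares 329 of its 9535 exonic bases with Dexi on the opposite strand, which had 284 to 671 counts in tumors against 27 to 1234 for Ciita.

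The invariant chain followed the same line difference. Cd74 was at 2499.7, 1668, 2825 and 2419 FPKM in D2.1 and 943, 400, 509.9 and 1767 FPKM in D2A1 tumors of BALB/c mice. In SCID-beige mice it was at 1256, 1371, 577.7, 485 and 791 FPKM in D2.1 and 104, 132, 143, 101 and 89.2 FPKM in D2A1 tumors. The SCID-beige groups did not overlap. In BALB/c mice D2.1 tumor 2 was below D2A1 tumor 4 in FPKM, and on the TMM-scaled scale used for the tests the 2 tumors were almost level (2256 and 2243 CPM), so the lack of overlap counted below rests on the scaling. The log2 differences were 1.46 ± 0.41 (adjusted p = 0.019) in BALB/c and 3.02 ± 0.29 (adjusted p = 5.3e-06) in SCID-beige mice.

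The classical chains differed between the lines by a similar amount. H2-Ab1, the I-A beta chain, had 277, 215.04, 397 and 363 FPKM in D2.1 and 131, 43.8, 67.9 and 247 FPKM in D2A1 tumors of BALB/c mice. D2A1 tumor 4 lay inside the D2.1 range, and the same was true of H2-Aa (102 to 241 FPKM in D2.1 and 15.2 to 135 FPKM in D2A1 tumors) and H2-Eb1 (349.9 to 789.7 and 65.3 to 398 FPKM). In SCID-beige mice H2-Ab1 had 159, 169, 59.4, 64.4 and 104 FPKM in D2.1 and 18.3, 20.97, 17.96, 16.2 and 12.1 FPKM in D2A1 tumors, with a clear gap. The log2 differences in BALB/c mice were 1.44 ± 0.45 for H2-Ab1, 1.70 ± 0.55 for H2-Aa and 1.65 ± 0.49 for H2-Eb1 (adjusted p = 0.033, 0.036 and 0.025). In SCID-beige mice they were 2.75 ± 0.31, 2.92 ± 0.38 and 3.02 ± 0.38 (adjusted p = 2.0e-05, 6.0e-05 and 4.3e-05). H2-Ea-ps, the I-E alpha gene that the reference annotation calls a pseudogene because the reference strain does not make it, had 7562 to 14849 counts in D2.1 BALB/c tumors and was higher in D2.1 tumors, by 1.59 ± 0.49 in BALB/c and 3.11 ± 0.36 in SCID-beige mice (adjusted p = 0.031 and 2.1e-05). It was not called in BALB/c mice without D2.1 tumors 1 and 4, at 1.49. H2-Eb2, a minor beta chain, had at most 4 counts in any tumor.

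The H2-DM genes, which edit the bound peptide, behaved less uniformly. H2-DMa was at 74.0, 48.4, 99.8 and 77.5 FPKM in D2.1 and 66.0, 40.8, 58.5 and 102 FPKM in D2A1 tumors of BALB/c mice, which overlapped over most of their range. Its differences between lines were 0.24 ± 0.28 (adjusted p = 0.56) in BALB/c and 0.63 ± 0.25 (adjusted p = 0.068) in SCID-beige mice. H2-DMb1, a beta chain, had 19.4, 13.6, 31.4 and 28.7 FPKM in D2.1 and 20.5, 6.88, 9.67 and 34.9 FPKM in D2A1 tumors of BALB/c mice, a difference of 0.46 ± 0.46 (adjusted p = 0.48). In SCID-beige mice H2-DMb1 had 17.0, 16.4, 6.44, 6.77 and 8.85 FPKM in D2.1 and 1.21, 3.67, 3.87, 2.99 and 2.78 FPKM in D2A1 tumors, and it was called there at 1.99 ± 0.38 (adjusted p = 0.0012). H2-DMb2, the other beta chain, had 10.1, 12.5, 6.31, 7.58 and 7.61 FPKM in D2.1 and 7.01, 11.4, 7.64, 7.97 and 5.88 FPKM in D2A1 tumors of SCID-beige mice, almost the same ranges. Its differences were 0.75 ± 0.36 (adjusted p = 0.14) in BALB/c and 0.19 ± 0.27 (adjusted p = 0.63) in SCID-beige mice, and with the replicate number as a block the BALB/c difference was called at 0.70 (adjusted p = 0.010).

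The ratio of H2-DMb2 to H2-DMb1 in FPKM, which needs no comparison between libraries, had a median of 0.898 in D2.1 BALB/c, 0.860 in D2.1 SCID-beige and 0.891 in D2A1 BALB/c tumors. In D2A1 SCID-beige tumors it ran from 1.98 to 5.77, above the highest value of any other tumor (1.29). The transcripts of these genes share 21.2% and 22.7% of their 50-base words (of H2-DMb2 and H2-DMb1), so reads may have been divided between them, and these values describe the deposited levels.

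**Figure D2:**
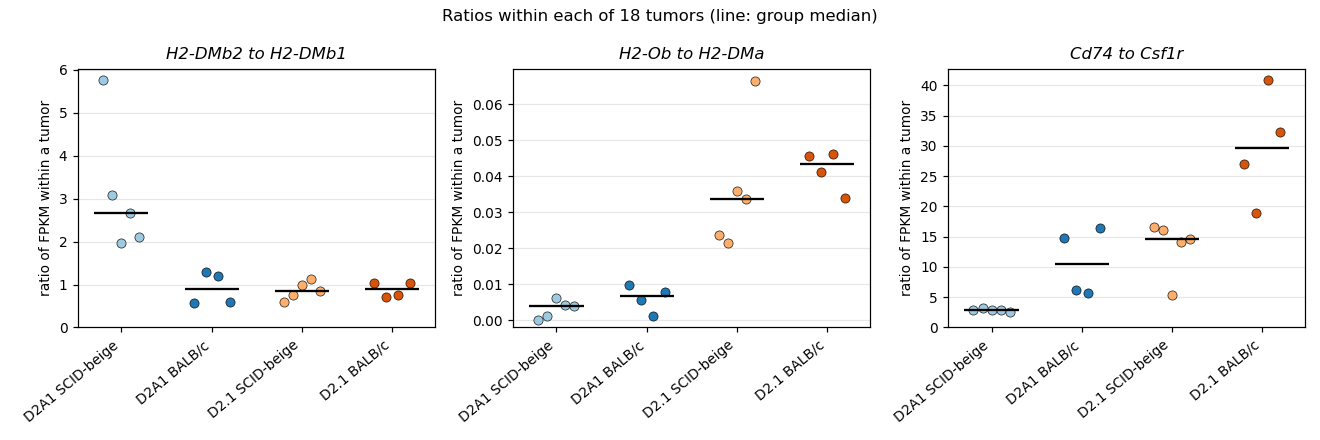
Ratios of FPKM within each of the 18 tumors for H2-DMb2 to H2-DMb1, H2-Ob to H2-DMa and Cd74 to Csf1r, by group, with a line at the group median. H2-DMb2 to H2-DMb1 is raised in D2A1 SCID-beige tumors (1.98 to 5.77), H2-Ob to H2-DMa is at or below 0.00989 in every D2A1 tumor and at or above 0.0214 in every D2.1 tumor.

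H2-Ob, the beta chain of the H2-DM inhibitor, had the widest gap between the lines. It was at 3.38, 1.99, 4.60 and 2.63 FPKM in D2.1 and 0.652, 0.233, 0.0731 and 0.818 FPKM in D2A1 tumors of BALB/c mice. In SCID-beige mice it was at 1.33, 1.25, 1.5003, 0.737 and 2.37 FPKM in D2.1 and 0, 0.0400, 0.181, 0.120 and 0.0795 FPKM in D2A1 tumors, which held 0 to 4 counts. The lines did not overlap in either host, and the log2 differences were 2.90 ± 0.60 (adjusted p = 0.0043) and 4.10 ± 0.62 (adjusted p = 2.1e-04). H2-Oa, the alpha chain, had 1.13, 0.866, 3.24 and 3.18 FPKM in D2.1 and 0.432, 0.109, 0.360 and 0.750 FPKM in D2A1 tumors of BALB/c mice, a difference of 2.40 ± 0.65 (adjusted p = 0.017). In SCID-beige mice H2-Oa was too low to test, with 3 to 17 counts in D2.1 and 0 to 9 in D2A1 tumors. Within a tumor, the ratio of H2-Ob to H2-DMa in FPKM was 0.0340 to 0.0461 in D2.1 BALB/c and 0.0214 to 0.0665 in D2.1 SCID-beige tumors, against at most 0.00989 in D2A1 tumors, with no overlap between the lines.

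Between the lines, 7 of the 10 tested members were therefore called higher in D2.1 BALB/c tumors, beside 16.8% of all 14953 genes (32.6% either way), and 7 of the 9 tested in SCID-beige mice, beside 17.2% of 14355 (32.1% either way). The median log2 difference of the members was 1.56 in BALB/c and 2.92 in SCID-beige mice, beside -0.02 and 0.02 over all genes tested. Without overlap were 4 members in BALB/c mice (16.9% of all genes) and 7 in SCID-beige mice (12.6%). In those, the exact two-sided permutation test gave 0.0286 for 4 against 4 and 0.0079 for 5 against 5 tumors, the smallest values these sizes allow. Groups without overlap always reach these values, so they add nothing to the lack of overlap. In SCID-beige mice 7 or 8 members were called whichever tumor was left out. In BALB/c mice the count fell to 3 without D2.1 tumor 3, to 3 without D2A1 tumor 3 and to 4 without D2A1 tumor 1, and to 1 (H2-Ob, 2.94, adjusted p = 0.023) without D2.1 tumors 1 and 4, with fold changes of 1.60 for Ciita and 1.37 for Cd74 on the log2 scale.

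**Figure D3:**
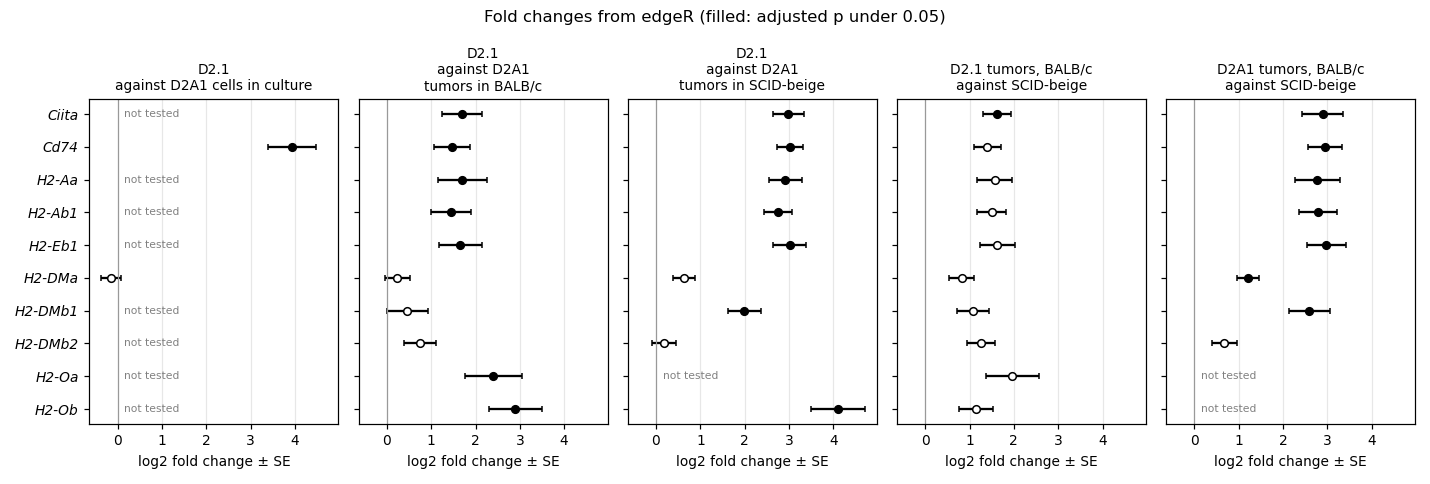
Log2 fold change ± SE of each gene in the 5 pairwise comparisons from edgeR, filled where the adjusted p is under 0.05. In SCID-beige mice Ciita, Cd74 and the classical chains lie between 2.75 and 3.02 while H2-DMa and H2-DMb2 lie at 0.63 and 0.19. The D2A1 host comparison has a similar profile, but both are set against the same D2A1 SCID-beige tumors, so the likeness is partly built in.

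In D2A1 tumors most class II genes were higher in BALB/c than in SCID-beige mice. Ciita was at 1.64 to 10.7 FPKM in BALB/c and at 0.519 to 0.974 FPKM in SCID-beige mice, with no overlap. The log2 differences were 2.90 ± 0.46 for Ciita, 2.94 ± 0.38 for Cd74, 2.77 ± 0.50 for H2-Aa, 2.79 ± 0.42 for H2-Ab1 and 2.97 ± 0.44 for H2-Eb1 (adjusted p = 0.014, 0.0089, 0.023, 0.011 and 0.011). H2-DMb1 was higher in BALB/c mice by 2.59 ± 0.46 (adjusted p = 0.021) and H2-DMa by a smaller 1.201 ± 0.25 (adjusted p = 0.043). H2-DMb2 ran from 8.84 to 20.5 FPKM in BALB/c and from 5.88 to 11.4 FPKM in SCID-beige mice, which overlapped, and its difference was 0.68 ± 0.28 (adjusted p = 0.42). H2-Oa and H2-Ob were too low to test.

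Thus 7 of the 8 members tested in D2A1 tumors were called higher in BALB/c mice, beside 0.906% of all 14572 genes (1.17% either way), and the same 7 did not overlap between hosts (3.31% of all genes). Each had an exact two-sided permutation p of 0.0159, the smallest for 4 against 5 tumors, which groups without overlap always reach. D2A1 BALB/c tumor 4 was the highest of its group for all 10 genes. Without it 3 members were called, with Ciita at 2.29 (adjusted p = 0.052) and Cd74 at 2.36 (adjusted p = 0.015) on the log2 scale. The count was also 3 without D2A1 SCID-beige tumor 1, and 4 without D2A1 BALB/c tumor 1 or D2A1 SCID-beige tumor 4. Cd74, H2-Ab1 and H2-Eb1 were called whichever tumor was left out.

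In D2.1 tumors all 10 genes had a positive log2 difference, higher in BALB/c mice, although 1 passed the test. The estimate was below that in D2A1 tumors for 7 of the 8 genes tested in both lines and above it for H2-DMb2 (1.26 in D2.1 and 0.68 in D2A1), differences that the interaction below did not call. Ciita ran from 12.8 to 19.3 FPKM in BALB/c and from 2.20 to 7.86 FPKM in SCID-beige mice, without overlap, and was called at 1.62 ± 0.32 (adjusted p = 0.037). Cd74 and H2-Ab1 also did not overlap but missed the threshold, at 1.40 ± 0.31 and 1.499 ± 0.33 (adjusted p = 0.056 for each). The other 7 members were between 0.82 (H2-DMa) and 1.97 (H2-Oa), with adjusted p from 0.088 to 0.27. So 1 of 10 members was called, beside 0.871% of all 14929 genes (0.891% either way), and 5 did not overlap between hosts (3.15% of all genes). The median of the members was 1.45, beside -0.01 over all genes. The call of Ciita was lost when any of D2.1 BALB/c tumors 1, 3 and 4 or D2.1 SCID-beige tumors 1, 3 and 5 was left out (adjusted p = 0.053 to 0.13), while 4 members were called without D2.1 BALB/c tumor 2 and 5 without D2.1 SCID-beige tumor 2. Without D2.1 BALB/c tumors 1 and 4 no member was called and Ciita was at 1.54 (adjusted p = 0.51).

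Whether the host effect differed between the lines was tested directly as an interaction. None of the 10 members was called, beside 0.0187% of all 16036 genes. The interaction of Cd74 was -1.57 ± 0.51 (unadjusted p = 0.0063, adjusted p = 0.37), a larger estimate in D2A1 than in D2.1 tumors, and that of Ciita was -1.30 ± 0.58 (adjusted p = 0.55). H2-Ab1, H2-Eb1 and H2-DMb1 also had an unadjusted p under 0.05, and DESeq2 called none of the 10 either. A difference between the host effects was therefore not detected for any member, and -1.57 ± 0.51 leaves room for a sizeable one.

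The members varied together across tumors to different degrees. Over the 18 tumors, in log2 CPM, Pearson's r of Ciita with Cd74 was 0.98, and after subtracting each group's mean it was 0.84. Cd74 with H2-Aa, H2-Ab1 and H2-Eb1 had r of 0.96, 0.97 and 0.98 after that subtraction, and with H2-Ea-ps 0.98. With the editors the values were 0.87 (H2-DMa), 0.88 (H2-DMb1) and 0.75 (H2-DMb2), and with the inhibitor chains 0.44 (H2-Oa) and 0.56 (H2-Ob). H2-Oa and H2-Ob had r of -0.02 with each other after the subtraction. These are descriptions over tumors that share 4 groups and 1 table, and the counts of H2-Oa are small.

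**Figure D4:**
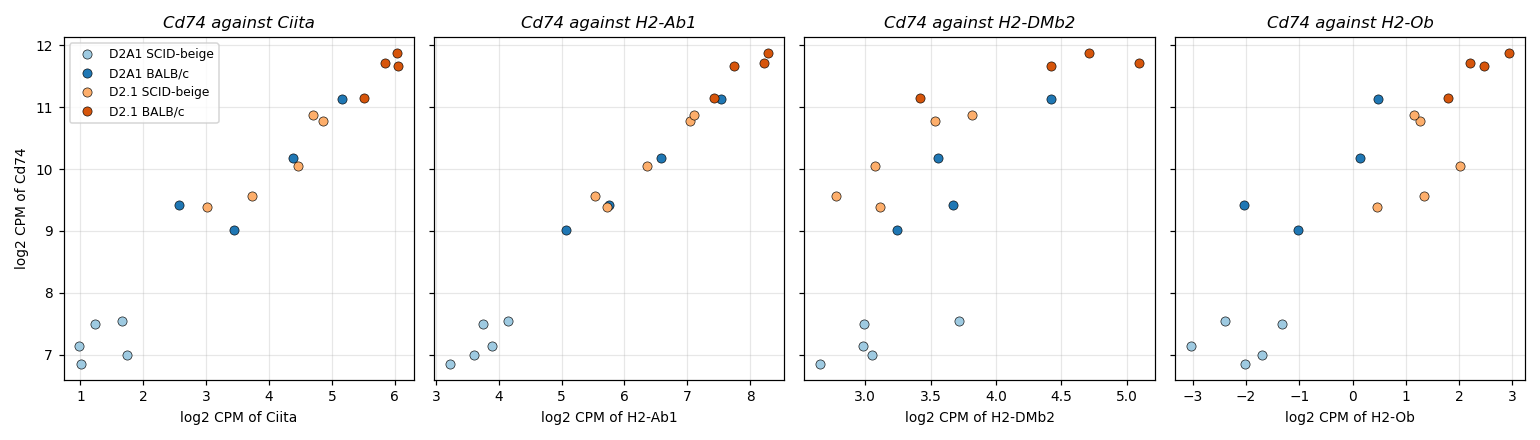
Log2 CPM of Cd74 in the 18 tumors against that of Ciita, H2-Ab1, H2-DMb2 and H2-Ob, colored by line and host. The points lie along a line for Ciita (r = 0.98) and H2-Ab1 (r = 0.99), scatter more for H2-DMb2 (r = 0.74), and for H2-Ob (r = 0.89) the D2A1 tumors lie to the left, with the highest of them (1.28 CPM) next to the lowest D2.1 tumor (1.25 CPM).

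Among 12701 other protein-coding genes, those with a pattern most like Ciita over the 18 tumors included Shtn1 (r = 0.96), Psd4 (0.96), Mmp25 (0.96) and H2-Q4 (0.95). For Cd74 they were Il10ra, H2-Q4, Jaml, Klrk1 and Batf2 (r = 0.97, 0.97, 0.97, 0.96 and 0.96), and for H2-Ob they included Nod1, Il2rb, Gpr132 and Il12b (r = 0.97, 0.96, 0.96 and 0.96). With group means subtracted the list changed for Ciita to Plbd1, Cd300a, Agap2, Flt3l and Fbln7 (r = 0.87 to 0.82) and for Cd74 to Cyp27a1, Plbd1, Gripap1, Irf8 and Tbc1d10c (r = 0.88 to 0.86). For H2-Ob it then included Gbp4, Kctd18, Nod1 and Mettl24 (r = 0.83 to 0.80).

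Few of the factors that seat Ciita on class II promoters were called in tumors. Over all genes 32.6% were called either way between the lines in BALB/c and 32.1% in SCID-beige mice. Of the 7 enhanceosome genes (RFX, NF-Y and CREB subunits), Rfx5 was called higher in D2.1 tumors in both hosts, by 0.86 ± 0.29 (adjusted p = 0.043, and none of the 7 called without D2.1 tumors 1 and 4) in BALB/c and 0.83 ± 0.21 (adjusted p = 0.0081) in SCID-beige mice, and in SCID-beige mice 1 further gene was. None of the 7 was called between hosts in either line. In culture 1 was called higher and 2 lower in D2.1, a share near the 44.9% of all genes called there, the largest being Nfya at -0.71, and the difference of Rfx5 was 0.79 ± 0.33 (adjusted p = 0.085). Rfx5 was at 9.74 to 19.2 CPM in the D2.1 and 5.84 to 10.3 CPM in the D2A1 cultures, so it was transcribed in cells that held almost no Ciita.

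Genes of the interferon-gamma route were called in each line comparison. The list holds receptor and signaling genes ahead of Ciita and also interferon-induced genes that are not upstream of it, such as Gbp2, Cxcl9 and Nlrc5. Of this route's genes, 9 of 15 tested were called higher and 3 lower in D2.1 cultures (8 and 2 without D2.1 culture replicate 2), with Gbp2 the largest at 2.62 and Irf1, a transcription factor induced by interferon, at 1.11 ± 0.16 (adjusted p = 6.0e-04). Over all genes 24.2% were called higher and 20.7% lower in culture. In BALB/c tumors 3 of 18 were called higher and 1 lower in D2.1 (1 higher and none lower without D2.1 tumors 1 and 4), the largest being Ifngr1, a receptor chain (1.62), while Irf1 and Nlrc5, the class I transactivator related to Ciita, were at 0.63 and 0.88 (adjusted p = 0.11 and 0.15). The number called higher there is near the share of all genes (16.8%), and 32.6% of all genes were called either way. In SCID-beige tumors 8 of 17 were called higher in D2.1 and none lower, with Nlrc5 the largest at 2.32 ± 0.43 (adjusted p = 0.0011) and Irf1 at 0.68 ± 0.16 (adjusted p = 0.0049). Over all genes 17.2% were called higher and 14.8% lower in that comparison.

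Between hosts, 7 of 17 genes of that route were called higher in D2A1 tumors of BALB/c mice, led by Cxcl9, a T cell chemokine (4.01), with Nlrc5 at 3.004 ± 0.58 (adjusted p = 0.032). In D2.1 tumors 4 of 18 were (2 without D2.1 BALB/c tumors 1 and 4), led again by Cxcl9 (2.61), with Nlrc5 at 1.59 ± 0.23 (adjusted p = 0.0086) and Irf1 at 0.64 ± 0.23 (adjusted p = 0.30). Irf1 was at 0.66 ± 0.21 (adjusted p = 0.21) in D2A1 tumors. Over all genes 0.906% were called higher in BALB/c mice in D2A1 and 0.871% in D2.1 tumors. Ifng itself had 9 to 47 counts in D2.1 BALB/c, 1 to 14 in D2.1 SCID-beige and 1 to 19 in D2A1 BALB/c tumors, and 0 in all 5 D2A1 SCID-beige tumors and all 6 cultures.

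Some genes that act on or beside class II molecules were called too. Of 11 antigen processing genes 2 were called higher and 1 lower in D2.1 tumors of each host, and the largest was Ctsl, a cathepsin, lower by -1.68 in BALB/c and -1.02 in SCID-beige mice and by -1.76 in culture, where 3 of 9 were higher. These counts are close to the shares of all genes called either way, 32.6% in BALB/c mice, 32.1% in SCID-beige mice and 44.9% in culture. Ctss, the cathepsin that cuts the invariant chain in antigen-presenting cells, was at -0.40 ± 0.24 (adjusted p = 0.24) between the lines in BALB/c and 0.37 ± 0.19 (adjusted p = 0.15) in SCID-beige mice. Between hosts it was called in D2A1 tumors at 1.30 ± 0.26 (adjusted p = 0.038), as the larger of 2 such genes, and was at 0.56 ± 0.16 (adjusted p = 0.15) in D2.1 tumors, where none was called. Of the costimulatory genes 3 of 8 were higher in D2.1 BALB/c tumors (16.8% of all genes, largest Cd80, 1.10) and 2 of 7 in SCID-beige mice (17.2% of all genes, largest Icosl, 1.62), none between hosts. Cd86 was among them at 0.64 ± 0.17 (adjusted p = 0.018) and 0.76 ± 0.23 (adjusted p = 0.020). In culture 1 of 4 was higher and 1 lower (none lower without D2.1 culture replicate 2), the largest being Tnfsf4 (4.78), and Cd86 was at 0.

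**Figure D5:**
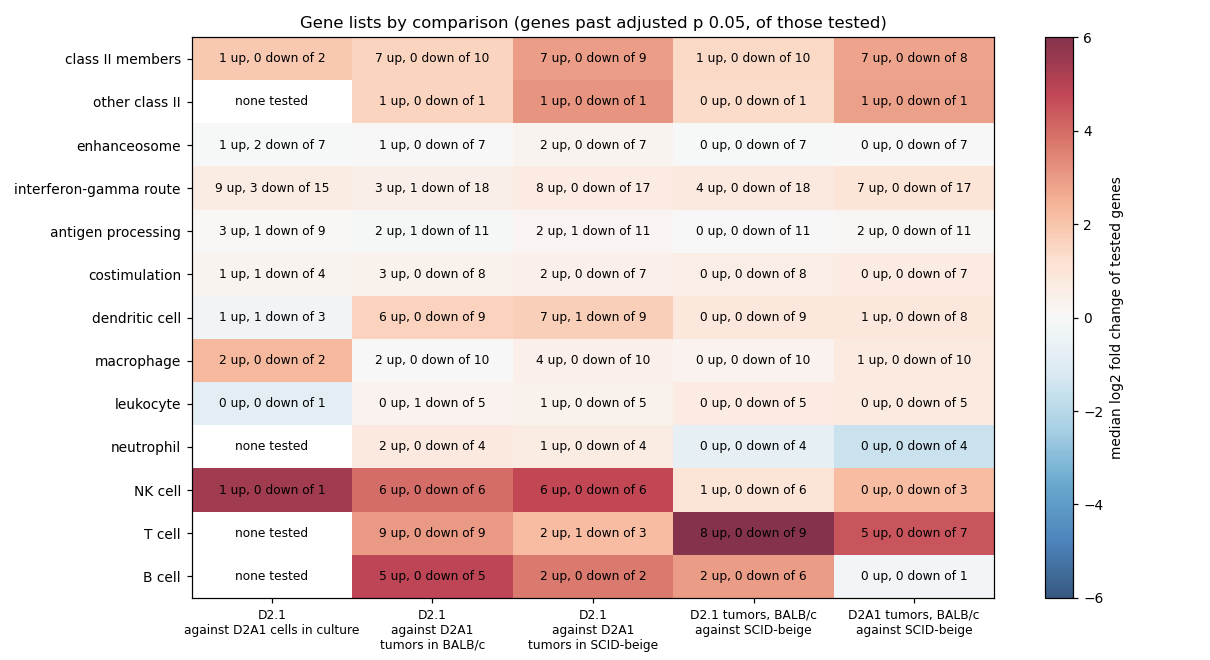
Median log2 fold change of the tested genes of each list (color) and the number called higher and lower of those tested (text), for the 5 pairwise comparisons. The members' median is 1.56 in the BALB/c line comparison, where that of the macrophage list is -0.04.

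Markers of the cells that normally carry class II moved with some of these comparisons. Csf1r, a macrophage receptor, was at 298 to 390 CPM in D2.1 and 253 to 443 CPM in D2A1 tumors of BALB/c mice, which overlapped, and the summed level of 10 macrophage markers was 2598 to 3477 CPM against 2500 to 4717 CPM. Of the 10, 2 were called higher in D2.1 (largest Mertk, 1.30), near the 16.8% of all genes, with a median of -0.04. Mertk was also called higher in D2.1 cultures. Of 9 dendritic cell markers 6 were called higher in D2.1 BALB/c tumors (largest Ccr7, 3.05), and Flt3 was at 6.45 to 10.7 CPM against 0.124 to 2.94 CPM. Some genes of that list were also transcribed in culture, so they do not mark dendritic cells alone here. Fscn1 was at 819 to 879 CPM in the D2.1 and 290 to 417 CPM in the D2A1 cultures, and Zbtb46 at 6.17 to 8.95 CPM in the D2A1 cultures. All 9 T cell (largest Cd4, 4.20), all 6 NK cell (largest Ncr1, 5.69) and all 5 tested B cell markers (largest Pax5, 5.98) were called higher in D2.1, as was Cxcl13 (3.80), the 1 tested lymph node gene. Summed B cell markers ran from 15.5 to 130 CPM in D2.1 and 1.30 to 3.14 CPM in D2A1 tumors of BALB/c mice. Ms4a1 was at 2.68, 0.241, 2.50 and 8.61 CPM in D2.1 BALB/c tumors 1 to 4. Tumor 2, the lowest for Ms4a1, was also lowest of its group for all 10 class II genes. Tumor 4, the highest for Ms4a1, was highest for 1 of them and tumor 3 for 8. Without D2.1 BALB/c tumors 1 and 4, the calls were 3 of 9 dendritic cell, 1 of 10 macrophage and 3 of 5 B cell markers, 1 of 11 antigen processing genes higher and 1 lower, and 1 of 8 costimulatory genes, with all 9 T cell and all 6 NK cell markers and Cxcl13 still called. The part of these cells in the class II difference was not tested.

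In SCID-beige mice Ms4a1 was at 0.184 CPM or below, but summed B cell markers were 7.88 to 18.5 CPM in D2.1 and 1.45 to 2.66 CPM in D2A1 tumors, with Cd22 at 5.25 to 11.6 and 0.413 to 2.08 CPM. In the same comparison 7 of 9 dendritic cell markers were called higher in D2.1 and 1 lower (largest Flt3, 3.64), 6 of 6 NK cell markers higher (largest Klrb1c, 5.56), 4 of 10 macrophage markers higher (largest Mrc1, 1.55) and 2 of 2 B cell markers higher (largest Cd79b, 4.93), with T cell markers at 2 higher and 1 lower of 3 (largest Trbc2, 3.98). Over all genes 17.2% were called higher there. Klrb1c was also called higher in D2.1 cultures, so it does not mark NK cells alone here. Csf1r was 0.92 ± 0.24 and Ptprc, a marker of all leukocytes, 1.24 ± 0.34 higher in D2.1 (adjusted p = 0.010 and 0.013). Within a tumor the ratio of Cd74 to Csf1r in FPKM had a median of 14.6 in D2.1 and 2.92 in D2A1 tumors of SCID-beige mice and of 29.7 and 10.49 in BALB/c mice. In SCID-beige mice the lowest D2.1 ratio (5.38) was above the highest D2A1 ratio (3.28), and in BALB/c mice the lowest D2.1 ratio (18.9) was above the highest D2A1 ratio (16.4). The ratio of Cd74 to Ptprc, by contrast, overlapped between the lines in both hosts. It was 19.3 to 79.4 in D2.1 and 7.15 to 26.2 in D2A1 tumors of SCID-beige mice. In BALB/c mice the ranges were 31.4 to 128 and 19.3 to 86.5.

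Other tissue markers also differed between the lines. Over all genes 32.6% were called either way in BALB/c mice, 32.1% in SCID-beige mice and 44.9% in culture. Mammary epithelial genes were called higher in D2.1 at 4 of 6 in BALB/c (1 lower) and 3 of 6 in SCID-beige mice (1 lower), led in both by Krt14 (5.06 and 5.92), with 3 higher and 1 lower in BALB/c mice without D2.1 tumors 1 and 4, and at 4 of 4 in culture, led by Krt8 (4.69). Fibroblast and endothelial genes were at 4 higher and 2 lower of 7 in BALB/c (largest Pdgfra, 3.74), 3 and 3 in SCID-beige mice (largest Dcn, 3.47) and 3 of 3 higher in culture (largest Col1a1, 4.66). Neutrophil genes were at 2 of 4 (largest Cxcr2, 2.49) and 1 of 4 (largest Csf3r, 1.31), leukocyte genes at 1 of 5 lower in BALB/c (Itgam, -0.72) and 1 of 5 higher in SCID-beige mice (Ptprc, given above), and Krt10 was lower in D2.1 by -4.13 in SCID-beige mice. Without D2.1 tumors 1 and 4, Itgam was not called in BALB/c mice, and Krt10 and Csn3 were called lower in D2.1 there. In culture, where summed macrophage markers were 24.9 to 28.9 CPM in D2.1 and 3.97 to 5.97 CPM in D2A1 cells, the called genes of the immune cell lists were Klrb1c (5.40), Mertk (2.63) with 1 further macrophage gene, Zbtb46 (-3.54) and 1 further dendritic cell gene, and Csn3 (-3.75) and Krt10 (-7.69) were lower.

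Between hosts fewer markers moved, beside 0.906% (D2A1) and 0.871% (D2.1) of all genes called higher in BALB/c mice. In D2A1 tumors 5 of 7 T cell markers (largest Cd3g, 8.37), 1 of 10 macrophage markers (Csf1r, 1.04 ± 0.19, adjusted p = 0.023) and 1 of 8 dendritic cell markers (Itgax, 0.92) were called higher in BALB/c mice, the single tested B cell gene was not, and Ptprc was at 1.03 ± 0.32 (adjusted p = 0.19). Summed macrophage markers were 2500 to 4717 CPM in BALB/c and 1782 to 2743 CPM in SCID-beige mice. In D2.1 tumors 8 of 9 T cell (largest Cd3e, 7.25), 2 of 6 B cell (largest Pax5, 5.25) and 1 of 6 NK cell markers (Ncr1, 1.56) and Cxcl13 (4.001) were called higher in BALB/c mice, no dendritic cell or macrophage marker was, and Csf1r and Ptprc were at 0.21 ± 0.26 and 0.67 ± 0.33 (adjusted p = 0.88 and 0.55). Without D2.1 BALB/c tumors 1 and 4, 4 of 9 T cell markers and Cxcl13 were called in D2.1 tumors and no B cell or NK cell marker was. The part of these cells in the host difference of the class II genes was not tested.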

How the data were processed

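Bulk RNA-seq of 6 cultures and 18 tumors was analysed. The authors deposited read counts per gene and FPKM values, in 1 table each for culture and tumors. STAR and mm10 are named in the submitters' processing notes, while the counter, annotation and strand setting are not given in the sources used here. Gene names and positions came from GENCODE vM21. Differences were tested on the deposited counts with edgeR 4.0.16 (TMM, filterByExpr, robust quasi-likelihood F test, Benjamini-Hochberg threshold 0.05) across all genes passing the filter, per comparison; SE is the log2 fold change over the square root of F. Single genes were also tested by exact two-sided permutation of log2 CPM with a prior count of 2. Levels are FPKM and were not tested between tables.

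Alternatives were DESeq2 1.42.0, its size factors, no filter, a filter of 10 counts, log2 fold changes beyond 1, 1 fit of all tumors, limma 3.58.1 on log2(FPKM + 0.1), a replicate block and leaving out each library. Same-numbered libraries of the lines deviated together in culture (r = 0.18 to 0.49) and BALB/c tumors (0.10 to 0.49), which was taken as pairing, but not in the other comparisons. Members, lists and the naming rule (all 10 members, fixed pathway genes, the largest called gene of each list, the 5 nearest patterns) were chosen with earlier results of these data known. Identifiers without a symbol held 0.0969% of culture and 0.0446% of tumor counts. A few genes covered by this rule are not reported here.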

Additional observations from a re-analysis of the deposited data

Results flagged for a closer look

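H2-Oa in D2A1 SCID-beige tumors was flagged because its highest tumor stood apart from the others of its group: the gap to the next tumor was 0.750 of the group's whole range in log2 CPM, above the limit of 0.71 for 5 samples. The values were 0.520, 0.0563, 0.0636, 0.0562 and 0 FPKM in tumors 1 to 5, from 9, 1, 1, 1 and 0 counts. This was 1 flag in 40 combinations of gene and tumor group, and chance flags about 1 in 20.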

How the results depend on the processing

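The direction of the members' fold changes was kept under all alternatives tried, apart from H2-DMb2 between lines in SCID-beige mice (-0.0076 without D2.1 SCID-beige tumor 2, up to 0.35 without others) and the interaction of H2-Oa (-1.10 without D2A1 SCID-beige tumor 1, up to 0.92). Calls held less well: of the members' refitted fold changes 792 kept direction and side of the threshold, 62 lost a call, 19 gained one and 2 reversed. Members called in D2.1 against D2A1 tumors of BALB/c mice numbered 3 without a filter and 1 without D2.1 tumors 1 and 4, which was added after seeing the data. In D2.1 tumors between hosts, DESeq2 called 6 members, limma 3, no filter 2 and the fit without tumors 1 and 4 called 0. Leaving out single libraries gave 1 to 1 members in culture, 3 to 8 and 7 to 8 between lines in BALB/c and SCID-beige mice, 0 to 5 and 3 to 7 between hosts in D2.1 and D2A1 tumors, and 0 to 0 for the interaction. Numbers of all genes called ranged over 4375 to 5908, 4074 to 5046, 3969 to 4916, 26 to 314, 27 to 172 and 0 to 12 in the same order. With a log2 fold change beyond 1 the line comparisons held 2786, 2939 and 2610 genes (culture, BALB/c, SCID-beige). Between hosts in D2.1 tumors the main 133 genes became 461 (DESeq2), 275 (no filter), 256 (1 fit of all tumors) and 11 (without tumors 1 and 4), in D2A1 tumors 170 became 569 (DESeq2), and the interaction's 3 became 105 (DESeq2), 6 (DESeq2 size factors), 7 (no filter) and 0 (without tumors 1 and 4). The cause was not tested.

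A replicate block between hosts left 14 genes and 0 members in D2.1 tumors and 0 genes and 0 members in D2A1 tumors. Those numbers did not pair the tumors (r = -0.20 to 0.17 and -0.44 to -0.19). In the line comparison of SCID-beige mice (r = -0.16 to 0.34) the block called 8 members, adding H2-DMa (0.59, adjusted p = 0.029). In culture and in BALB/c mice, where the numbers were taken as pairing, it changed no call of a member other than H2-DMb2. Over all genes it raised the number called from 5602 to 7539 in culture and from 4868 to 7116 in BALB/c mice. Spearman's rho kept 3 of the 5 nearest patterns of Ciita and 2 of those of Cd74. Depth limits H2-Oa and H2-Ob, at 0 to 9 and 0 to 4 counts in D2A1 SCID-beige tumors, and all members but Cd74 and H2-DMa in culture.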
